A study of Saccharomyces cerevisiae with 8 samples.

Results

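The genes described here are 31 heat shock protein and chaperone genes of *Saccharomyces cerevisiae*, among 6868 features in the expression table. They were taken from a list of open reading frames grouped by function: the protein sorting factors *BTN2* (YGR142W) and *CUR1* (YPR158W), the transcription factor *HSF1* (YGL073W), the small heat shock proteins, the disaggregases, the Hsp70 and Hsp90 chaperones with their cochaperones, and chaperones of the mitochondrion. Every one of the 31 had a value on all 8 arrays and passed the filter on missing values, so none was lost before testing.

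Chaperones bind unfolded or misfolded proteins and help them fold, keep them soluble, pull them out of aggregates or pass them on for degradation. In yeast many of these genes are activated by Hsf1, a transcription factor that is held in check by Hsp70 in unstressed cells and is freed when unfolded proteins draw Hsp70 away. A number of them are also targets of Msn2 and Msn4, which drive the general response to stresses such as salt, and heat alone raises the expression of most.

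Cells of 3 strains, given as W303 in the labels, were grown in the rich medium YPD at 25 °C, moved to 35 °C and then treated with 0.7 M NaCl for 30 min while still at 35 °C. The *snf1* strain (3 arrays) lacks the protein kinase Snf1, which is best known for its part in growth on carbon sources other than glucose. The *cdc14-3* strain (2 arrays, replicates 2 and 3) carries a temperature-sensitive allele of *CDC14*, the phosphatase that drives cells out of mitosis, and the *cdc14-3 snf1* strain (3 arrays) carries both mutations. Before NaCl, the cells of replicate 1 of *snf1* and of replicate 1 of *cdc14-3 snf1* had spent 90 min at 35 °C and those of the other 6 arrays 2 h, so that time at 35 °C and replicate 1 cannot be told apart. No wild-type array was analysed here. The paper reports that cells of the temperature-sensitive mutant were arrested in mitosis while treated. It holds that cell-cycle defects do not account for that mutant's altered response to NaCl. Whether the strain with both mutations was arrested is not stated. A difference between *snf1* and a strain with the allele therefore cannot be told apart from an effect of arrest, which was not tested. The study took its deletion strains mainly from the yeast deletion collection and checked knockouts by PCR, but does not say how the *snf1* strains used here were made, whether a strain is 1 clone, or whether replicates were separate cultures, so p-values measure only the spread between these arrays.

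Each array gave, for each gene, the log2 ratio of NaCl-treated over unstressed cells of the same strain. It is a response and not a transcript level, so a lower ratio can come with a higher level in the unstressed cells, which had already been held at 35 °C. The paper describes slightly higher levels of many stress-induced genes in the heated temperature-sensitive mutant before NaCl. It holds that this cannot account for that mutant's defect in the response to NaCl. Levels of the members before NaCl were not tested here. The treated cells had spent the length of the NaCl treatment longer at 35 °C than the unstressed cells, and the effects of NaCl and of that extra heat on a ratio cannot be told apart. The same dye marked the treated cells on every array, so a dye bias enters a strain's response against 0 but cancels in a difference between strains. Because both cell samples carry the same mutations, the ratio of *SNF1* or *CDC14* does not check a strain's genotype. Each array's median over all features was within 0.001 of 0, and between 6165 and 6776 features had a value.

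One array stood apart within its strain for these genes. Replicate 1 of *cdc14-3 snf1*, the 90 min array, correlated over the 31 genes at r = 0.95 with replicate 1 of *snf1*, 0.95 with replicate 2 and 0.94 with replicate 3, and at 0.88 and 0.89 with the 2 h replicates 2 and 3 of its own strain. Over all features both 90 min arrays stood apart from their strains, and correlated at 0.90 with each other. That of *cdc14-3 snf1* was at 0.79 and 0.84 with the 2 h arrays of its strain. That of *snf1* was at 0.77 with each of its own, while the pair of 2 h arrays was at 0.88 in both strains. These are correlations across genes, which are not independent replicates. Several results that use the 90 min arrays are therefore also given over the 2 h arrays. Across the members, the median log2 ratio was 0.50, 0.76 and 0.55 on the *snf1* arrays, -0.37 and -0.60 on the *cdc14-3* arrays, and 0.19, -0.22 and -0.41 on the *cdc14-3 snf1* arrays. The number of members above 0 was 24, 25 and 25 in *snf1*, 11 and 11 in *cdc14-3*, and 18, 14 and 14 in *cdc14-3 snf1*.

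**Figure D1:**
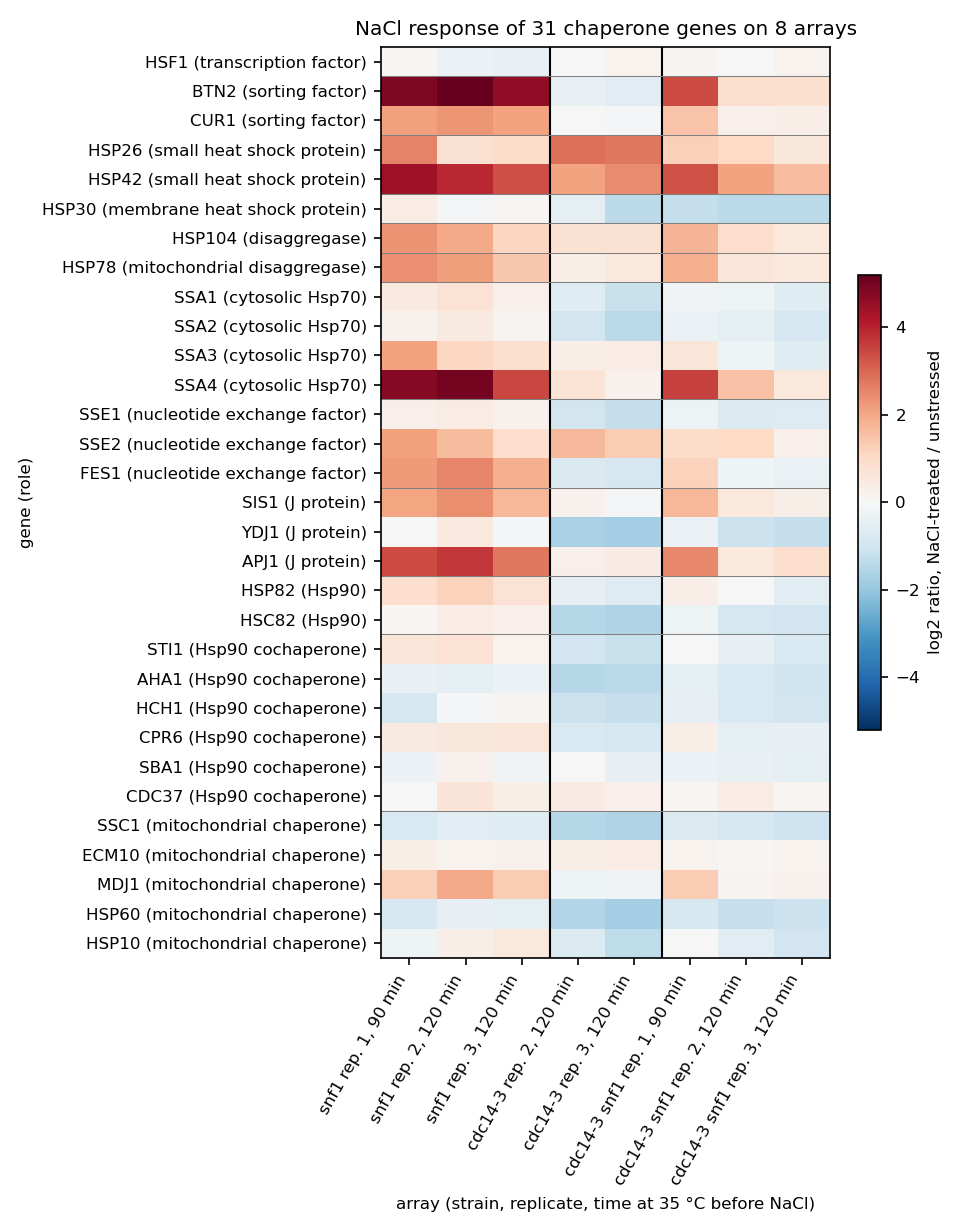
Log2 ratio (NaCl-treated over unstressed) of each of the 31 genes (rows, ordered by role) on each of the 8 arrays (columns, with strain, replicate and minutes at 35 °C before NaCl), red above 0 and blue below. *BTN2* and *SSA4* are the deepest red in *snf1*, at up to 5.18 and 4.99, and pale in *cdc14-3*.

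To ask which members responded in each strain, the mean log2 ratio of each strain was tested against 0 in limma, with the Benjamini-Hochberg adjustment over 6135 features and a threshold of 0.05 on the adjusted p. In *snf1*, 17 of the 31 members rose (24.3% of all features rose) and 3 fell (27% of all features fell). In *cdc14-3*, 3 members rose against 18.3% of all features, and 13 fell against 22% of all features. In the fit of the 2 h arrays alone, 5 members rose in *cdc14-3* (1505 of 6096 features) and 16 fell (1669 of 6096). *HSP104* and *ECM10* were then among the rises, and *BTN2*, *FES1* and *HSP82* among the falls. In *cdc14-3 snf1*, 10 rose and 10 fell, against 20.6% and 25.5% of all features. The median response of the members was 0.52 in *snf1*, -0.49 in *cdc14-3* and -0.06 in *cdc14-3 snf1*, and that of all features tested was -0.06, -0.00 and -0.03. The 10 rises in *cdc14-3 snf1* rested in part on the 90 min array of that strain: without it 3 members rose (*BTN2*, *HSP42* and *APJ1*) and 12 fell. Over the 2 h arrays of all strains, 6 members rose (20.5% of all features), these 3 with *HSP26*, *HSP104* and *HSP78*, and 14 fell (25.9% of all features).

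*BTN2* and *CUR1* encode related factors that steer misfolded proteins to storage sites in the cell. *BTN2* had log2 ratios of 4.85, 5.18 and 4.59 in *snf1*, of -0.37 and -0.60 in *cdc14-3*, and of 3.38, 0.82 and 0.83 in *cdc14-3 snf1*. No value of one strain overlapped those of another, and within *cdc14-3 snf1* the 90 min array lay far above the pair of 2 h arrays, which were almost equal. The response was 4.88 ± 0.30 (SD, n = 3) in *snf1*, a 29.3-fold rise (limma adjusted p = 8.4e-05), -0.49 ± 0.16 (SD, n = 2) in *cdc14-3* (limma adjusted p = 0.48) and 1.68 ± 1.47 (SD, n = 3) in *cdc14-3 snf1*, a 3.20-fold rise (limma adjusted p = 0.0093). In the fit of the 2 h arrays alone, the fall of *BTN2* in *cdc14-3* passed the threshold (-0.49, limma adjusted p = 0.037). Its paralog *CUR1* had ratios of 2.12, 2.28 and 2.07 in *snf1*, -0.03 and -0.07 in *cdc14-3*, and 1.46, 0.27 and 0.35 in *cdc14-3 snf1*. The *CUR1* values took the same order as those of *BTN2* between strains, over a smaller range. *CUR1* rose in *snf1* (2.16, SE 0.21, limma adjusted p = 0.00012) and in *cdc14-3 snf1* (0.70, SE 0.21, limma adjusted p = 0.022), the latter not past the threshold without the 90 min array (0.31, limma adjusted p = 0.10).

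The small heat shock proteins hold unfolding proteins in a form from which other chaperones can recover them, and *HSP42* (YDR171W) and *HSP26* (YBR072W) were among the 3 members that rose in every strain. *HSP42* had ratios of 4.40, 3.91 and 3.35 in *snf1*, 2.08 and 2.45 in *cdc14-3*, and 3.30, 2.10 and 1.59 in *cdc14-3 snf1*, and its mean over the 8 arrays, 2.90, was the highest of the 31. *HSP26* had another order of strains: its ratios were 2.57, 0.80 and 0.93 in *snf1*, 2.85 and 2.76 in *cdc14-3*, and 1.26, 1.04 and 0.58 in *cdc14-3 snf1*. *HSP26* was the single member whose *cdc14-3* arrays both lay above every *snf1* array, by 1.37 (SE 0.47) on average, which did not pass the threshold over all arrays (limma adjusted p = 0.072) and did over the 2 h arrays (1.93, limma adjusted p = 0.0012). The response of *HSP42* was a 14.8-fold rise in *snf1*, 4.81-fold in *cdc14-3* and 5.02-fold in *cdc14-3 snf1* (limma adjusted p = 7.4e-05, 0.0012 and 4.4e-04). The rise of *HSP26* in *cdc14-3 snf1* was not past the threshold without replicate 1 or replicate 2 of that strain (limma adjusted p = 0.14 and 0.096).

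*HSP30* (YCR021C) encodes a membrane protein that restrains the plasma membrane proton pump. It had ratios of 0.39, -0.11 and 0.10 in *snf1*, -0.53 and -1.35 in *cdc14-3*, and -1.26, -1.40 and -1.39 in *cdc14-3 snf1*. It fell in *cdc14-3* (-0.94, SE 0.21, limma adjusted p = 0.0060) and in *cdc14-3 snf1* (-1.35, SE 0.17, limma adjusted p = 4.2e-04), and the 90 min array of *cdc14-3 snf1* was close to the other arrays of its strain. The fall in *cdc14-3* was not past the threshold without its replicate 3 (limma adjusted p = 0.16).

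The disaggregases *HSP104* (YLL026W), which works with Hsp70 in the cytosol, and *HSP78* (YDR258C), its counterpart in mitochondria, pull proteins out of aggregates. *HSP104* had ratios of 2.34, 1.97 and 1.12 in *snf1*, 0.77 and 0.80 in *cdc14-3*, and 1.75, 0.93 and 0.55 in *cdc14-3 snf1*. *HSP78* was at 2.37, 2.18 and 1.39 in *snf1*, 0.31 and 0.55 in *cdc14-3*, and 1.85, 0.64 and 0.56 in *cdc14-3 snf1*. Both were above 0 on all 8 arrays, and in both *snf1* and *cdc14-3 snf1* the 90 min array was the highest of its strain. Both rose in *snf1* (3.51-fold and 3.94-fold, limma adjusted p = 5.4e-04 and 4.1e-04) and in *cdc14-3 snf1* (2.11-fold and 2.02-fold, limma adjusted p = 0.0075 and 0.011), and the rises in *cdc14-3 snf1* were not past the threshold without the 90 min array of that strain (limma adjusted p = 0.061 and 0.076).

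Yeast has 4 cytosolic Hsp70 genes of the Ssa family: *SSA1* (YAL005C) and *SSA2* (YLL024C) supply most of the protein in unstressed cells, and *SSA3* (YBL075C) and *SSA4* (YER103W) are made under stress. *SSA4* had ratios of 4.71, 4.99 and 3.48 in *snf1*, 0.73 and 0.23 in *cdc14-3*, and 3.54, 1.53 and 0.54 in *cdc14-3 snf1*. The *snf1* arrays overlapped with the 90 min array of *cdc14-3 snf1* and with no other array. *SSA4* rose 21-fold in *snf1* (limma adjusted p = 1.9e-04) and 3.66-fold in *cdc14-3 snf1* (limma adjusted p = 0.011, and 0.060 without the 90 min array), and its response in *cdc14-3* was 0.48 (SE 0.58, limma adjusted p = 0.54). *SSA3* had ratios of 2.10, 1.08 and 0.85 in *snf1*, 0.33 and 0.39 in *cdc14-3*, and 0.65, -0.28 and -0.62 in *cdc14-3 snf1*. It rose in *snf1* alone of the 3 strains, and over the 2 h arrays it fell in *cdc14-3 snf1* (-0.45, limma adjusted p = 0.027). *SSA2*, with the lowest mean of the 4, was at 0.24, 0.46 and 0.14 in *snf1*, -0.95 and -1.40 in *cdc14-3*, and -0.36, -0.47 and -0.85 in *cdc14-3 snf1*. For both *SSA1* and *SSA2* every *snf1* array lay above 0 and every array of the other strains below 0. The fall of *SSA2* passed the threshold in *cdc14-3* (-1.18, SE 0.18) and in *cdc14-3 snf1* (-0.56, SE 0.15), with limma adjusted p = 9.3e-04 and 0.012, and that of *SSA1* in *cdc14-3* (-0.89, SE 0.19, limma adjusted p = 0.0054). Without replicate 3 of the strain, the fall of *SSA2* in *cdc14-3 snf1* and that of *SSA1* in *cdc14-3* were not past it (limma adjusted p = 0.10 and 0.13).

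Nucleotide exchange factors release ADP from Hsp70 so that it can let go of its substrate. *FES1* (YBR101C) had ratios of 2.20, 2.55 and 1.84 in *snf1*, -0.75 and -0.86 in *cdc14-3*, and 1.20, -0.22 and -0.36 in *cdc14-3 snf1*, where the 90 min array was the one above 0. *SSE1* (YPL106C) and *SSE2* (YBR169C) encode the Hsp110 proteins, close relatives of Hsp70. *SSE1* was at 0.25, 0.38 and 0.22 in *snf1*, -0.95 and -1.25 in *cdc14-3*, and -0.26, -0.73 and -0.69 in *cdc14-3 snf1*. *SSE2* was at 2.15, 1.66 and 0.89 in *snf1*, 1.68 and 1.34 in *cdc14-3*, and 0.96, 1.02 and 0.24 in *cdc14-3 snf1*. *FES1* thus rose in *snf1* (4.58-fold, limma adjusted p = 3.1e-04), *SSE1* fell in both *cdc14-3* strains (limma adjusted p = 8.1e-04 in *cdc14-3* and 0.0076 in *cdc14-3 snf1*), and *SSE2* rose in all 3 strains. The call of *SSE1* in *cdc14-3 snf1* was lost without replicate 2 or 3 of that strain (limma adjusted p = 0.060 and 0.059). That of *SSE2* was lost in *cdc14-3 snf1* over the 2 h arrays (0.63, limma adjusted p = 0.067) and without replicate 1 or 2 (limma adjusted p = 0.14 in both), and in *cdc14-3* without replicate 2 (limma adjusted p = 0.081).

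J proteins bring substrates to Hsp70 and start its ATPase. *SIS1* (YNL007C) and *YDJ1* (YNL064C) are the main J proteins of the cytosol, and *APJ1* (YNL077W) is a minor one. *APJ1* had ratios of 3.38, 3.70 and 2.76 in *snf1*, 0.26 and 0.44 in *cdc14-3*, and 2.49, 0.54 and 0.93 in *cdc14-3 snf1*. *SIS1* was at 2.03, 2.43 and 1.71 in *snf1*, 0.21 and -0.05 in *cdc14-3*, and 1.73, 0.54 and 0.29 in *cdc14-3 snf1*. The 2 genes shared an order of strains, with *snf1* the highest. *YDJ1* was near 0 in *snf1* (0.03, 0.51 and -0.05) and low in *cdc14-3* (-1.67 and -1.76), with *cdc14-3 snf1* between them (-0.32, -1.11 and -1.24). *APJ1* rose 9.70-fold and *SIS1* 4.16-fold in *snf1* (limma adjusted p = 1.3e-04 and 3.0e-04), while *YDJ1* fell to 0.305 of the unstressed value in *cdc14-3* and to 0.539 in *cdc14-3 snf1* (limma adjusted p = 4.7e-04 and 0.0042).

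Hsp90 completes the folding of kinases, receptors and other clients. Of its pair of genes, *HSP82* (YPL240C), the more inducible one, had ratios of 0.88, 1.20 and 0.74 in *snf1*, -0.43 and -0.69 in *cdc14-3*, and 0.34, 0.02 and -0.54 in *cdc14-3 snf1*. *HSC82* (YMR186W), made at a high level without stress, was at 0.12, 0.37 and 0.25 in *snf1*, -1.50 and -1.57 in *cdc14-3*, and -0.25, -0.88 and -1.0 in *cdc14-3 snf1*. *HSP82* rose in *snf1* (1.92-fold, limma adjusted p = 0.0021), and *HSC82* fell in *cdc14-3* (fold 0.345, limma adjusted p = 3.1e-04) and in *cdc14-3 snf1* (fold 0.612, limma adjusted p = 0.0049).

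The members hold 6 Hsp90 cochaperones: *STI1* (YOR027W) links Hsp70 to Hsp90, *AHA1* (YDR214W) and *HCH1* (YNL281W) start the Hsp90 ATPase, *CPR6* (YLR216C) is a prolyl isomerase, *SBA1* (YKL117W) is the yeast p23 and *CDC37* (YDR168W) delivers kinases. In *snf1* *STI1* and *CPR6* rose (0.52 and 0.56, limma adjusted p = 0.028 and 0.017) and *AHA1* fell (-0.39, limma adjusted p = 0.034). These 3 calls were near the threshold: *AHA1* lost it without any 1 of the *snf1* arrays (limma adjusted p between 0.062 and 0.14), *STI1* without replicate 1 or 2 (0.090 and 0.15) and over the 2 h arrays (0.051), and *CPR6* without replicate 2 or 3 (0.065 and 0.069). *AHA1*, with the lowest mean of the 6, had ratios of -0.38, -0.50 and -0.30 in *snf1*, -1.48 and -1.40 in *cdc14-3*, and -0.47, -0.80 and -1.04 in *cdc14-3 snf1*. *CDC37*, with the highest, was at -0.03, 0.69 and 0.29, at 0.44 and 0.28, and at 0.10, 0.39 and 0.10, and the 3 strains overlapped. In *cdc14-3*, *STI1*, *AHA1*, *HCH1* and *CPR6* fell, by log2 changes between -1.44 and -0.82, of which that of *AHA1* alone stayed past the threshold with either *cdc14-3* array left out (limma adjusted p between 0.051 and 0.11 for the others). *SBA1* fell in *cdc14-3 snf1* (-0.40, SE 0.15, limma adjusted p = 0.047), which was not past the threshold without any 1 array of that strain (limma adjusted p between 0.088 and 0.21).

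In mitochondria, *SSC1* (YJR045C) is the main Hsp70, *ECM10* (YEL030W) its little-expressed paralog, *MDJ1* (YFL016C) its J protein, and *HSP60* (YLR259C) and *HSP10* (YOR020C) form the chaperonin. *HSP60* had the lowest mean of the 31 genes over the 8 arrays, -1.03, with ratios of -0.88, -0.43 and -0.49 in *snf1*, -1.54 and -1.77 in *cdc14-3*, and -0.84, -1.21 and -1.11 in *cdc14-3 snf1*. *SSC1* fell in every strain too, by 0.68, 1.52 and 0.90 on the log2 scale in *snf1*, *cdc14-3* and *cdc14-3 snf1*. *MDJ1*, the highest of the 5, was at 1.25, 1.97 and 1.31 in *snf1*, -0.28 and -0.19 in *cdc14-3*, and 1.31, 0.13 and 0.20 in *cdc14-3 snf1*, and rose in *snf1* (2.85-fold, limma adjusted p = 8.2e-04). Its ratios in *snf1* were above 0 and those of *SSC1*, at -0.79, -0.61 and -0.64, below it. *HSP10* fell in *cdc14-3* (-1.03, SE 0.26, limma adjusted p = 0.012), a call that needed both arrays of that strain. *ECM10* lay between 0.07 and 0.39 on all 8 arrays and passed the threshold in no strain over all arrays. Over the 2 h arrays it rose in *cdc14-3* (0.35, limma adjusted p = 0.029).

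*HSF1* itself had ratios of 0.07, -0.30 and -0.40 in *snf1*, -0.01 and 0.19 in *cdc14-3*, and 0.14, -0.02 and 0.19 in *cdc14-3 snf1*. Over all arrays it passed the threshold in none of the 3 responses (limma adjusted p between 0.20 and 0.68), and its 95% interval for *cdc14-3* minus *snf1* ran from -0.16 to 0.77. Over the 2 h arrays it fell in *snf1* (-0.35, limma adjusted p = 0.044). There *cdc14-3* minus *snf1* was 0.44 (95% interval 0.045 to 0.84), not past the threshold (limma adjusted p = 0.078). Transcript ratios of *HSF1* do not measure the activity of the protein.

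The single mutants were compared next, to ask how far the response differed between cells without Snf1 and cells without active Cdc14. They differ at both genes and no wild-type array was analysed, so a difference cannot be assigned to either mutation. It also cannot be told apart from an effect of the mitotic arrest. Nor can it be told apart from a difference in background, as the methods name BY4741 for strains other than *cdc14-3* and its wild type. Of the 31 members 22 were lower in *cdc14-3* than in *snf1* and none was higher, against 10.2% of all features that were lower. Levels before NaCl were not tested, so a lower ratio here is not shown to be weaker induction. The largest differences (*cdc14-3* minus *snf1*) were those of *BTN2* at -5.36 (95% interval -6.84 to -3.88, limma adjusted p = 0.0043), *SSA4* at -3.91 (-5.61 to -2.22, 0.012), *FES1* at -3.0 (-3.96 to -2.04, 0.0047) and *APJ1* at -2.92 (-4.07 to -1.78, 0.0079). *CUR1*, *SIS1*, *YDJ1* and *HSC82* followed, at -2.21, -1.98, -1.88 and -1.78. The value of *BTN2* was the lowest of all 6135 features. The 9 members not past the threshold were *HSF1*, *HSP26*, *HSP104*, *SSA3*, *SSE2*, *HCH1*, *SBA1*, *CDC37* and *ECM10*, of which *SSE2* had a difference of -0.054 with an interval of -0.89 to 0.78.

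**Figure D2:**
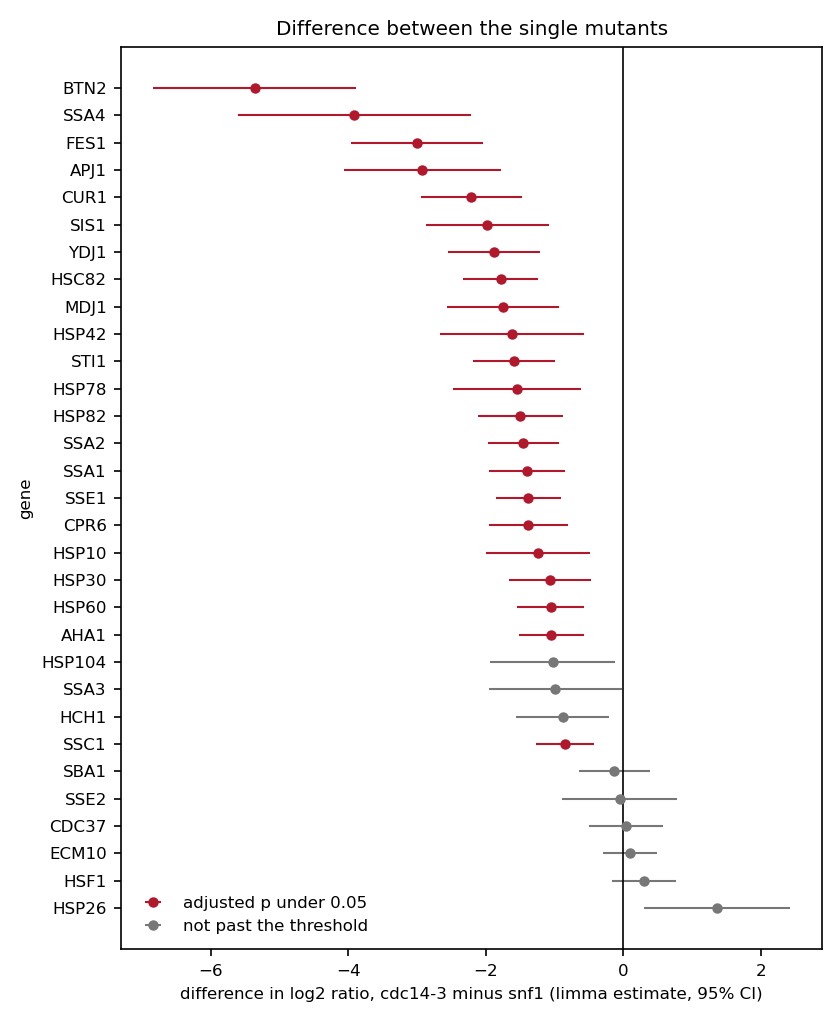
Difference in log2 ratio between *cdc14-3* (2 arrays) and *snf1* (3 arrays) for each of the 31 genes, ordered by size (limma estimate with its 95% interval on the horizontal axis), in red where the adjusted p was under 0.05. The 22 red genes lie below 0, from *BTN2* at -5.36 to *SSC1* at -0.84, and *HSP26* at 1.37 is the highest.

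The values of the arrays showed the same split: in 25 of the 31 members both *cdc14-3* arrays lay below every *snf1* array (26.9% of all features), in 1, *HSP26*, above, and in 5 the strains overlapped. In 11 members, *BTN2*, *CUR1*, *SSA1*, *SSA2*, *SSE1*, *FES1*, *HSP82*, *HSC82*, *STI1*, *CPR6* and *MDJ1*, every *snf1* array was above 0 and both *cdc14-3* arrays below it, a pattern held by 4.74% of all features with 8 values. Over the 2 h arrays alone, 24 members were lower in *cdc14-3* (20% of all features) and 1, *HSP26*, was higher. The exact permutation test over arrays (two-sided) for *BTN2* gave p = 0.2, the smallest that 2 arrays against 3 allow. The calls rested on both *cdc14-3* arrays: without replicate 2 no member passed (21 had an unadjusted limma p under 0.05), and without replicate 3 there were 7, though the median difference of the members stayed at -1.48 and -1.23.

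By the labels the *cdc14-3 snf1* strain carries the *cdc14-3* allele beside the loss of Snf1, and both are W303. The methods name BY4741 for strains other than *cdc14-3* and its wild type, so a difference in background cannot be told apart from the allele. Over all arrays no member passed the threshold for this difference in limma, and no feature of the table did (0% of all features), while 22 members had an unadjusted p under 0.05, all lower in *cdc14-3 snf1* (10.5% of all features). *BTN2* differed by -3.20 (95% interval -4.52 to -1.88, limma adjusted p = 0.11), the lowest value of all features, and *HSP30* by -1.48 (-2.01 to -0.94, limma adjusted p = 0.080). For *BTN2* the exact permutation test over arrays (two-sided) gave p = 0.1, the smallest that 3 arrays against 3 allow. In 15 members every *cdc14-3 snf1* array lay below every *snf1* array, against 10.6% of all features, and in the other 16 the strains overlapped.

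Over the 2 h arrays, which compare cells held equally long at 35 °C, 22 members were lower in *cdc14-3 snf1* than in *snf1* and none was higher (12.8% of all features were lower). *BTN2* again had the lowest value of all features at -4.06 (95% interval -4.59 to -3.53, limma adjusted p = 0.0013) and *SSA4* the second lowest at -3.20 (-4.43 to -1.96, 0.012). *APJ1*, *FES1*, *CUR1*, *HSP42*, *SIS1* and *MDJ1* came next among the members, at -2.49, -2.48, -1.86, -1.79, -1.66 and -1.47. *HSP26*, which is a small heat shock protein like *HSP42*, differed by -0.062 (-0.52 to 0.40) here.

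The difference between *cdc14-3 snf1* and *cdc14-3* compares, by the labels, strains with and without the loss of Snf1 where Cdc14 was inactive. Over all arrays it also holds replicate 1 of *cdc14-3 snf1*, which had a shorter time in heat, while both *cdc14-3* arrays were at 2 h. The paper describes *SNF1* as deleted in the *cdc14-3* background, but does not say how that strain was made. Other differences between the strains therefore cannot be told apart from the loss of Snf1. No member passed the threshold over all arrays in limma (0.0489% of all features did), and 13 had an unadjusted p under 0.05, of which 12 were higher in *cdc14-3 snf1* (4.79% of all features) and 1, *HSP26*, lower. *BTN2* was higher by 2.16 (95% interval 0.68 to 3.64, limma adjusted p = 0.27), the second highest value of all features, and the exact permutation test (two-sided) gave p = 0.2, the smallest that 2 arrays against 3 allow. In 18 members every *cdc14-3 snf1* array lay above both *cdc14-3* arrays (18.8% of all features), and in 3, *HSP26*, *SSE2* and *ECM10*, below them (17% of all features). Over the 2 h arrays *HSP26* was the member that passed (-2.00, 95% interval -2.46 to -1.53, limma adjusted p = 0.014, with 0.722% of all features called), and *BTN2* was at 1.31 (0.78 to 1.84, limma adjusted p = 0.062). *HSP26* thus had its highest ratios in *cdc14-3* and lower ones on the 2 h arrays of both strains without Snf1.

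At 2 h the members tended to one order of strains. In 21 of the 31 (67.7%) the mean of the 2 h arrays was lowest in *cdc14-3*, intermediate in *cdc14-3 snf1* and highest in *snf1*, against 32.5% of the 6096 features with 8 values. Neighbors in this order did not always differ beyond their spread: *HSP82*, for example, was at -0.43 and -0.69 in *cdc14-3* and at 0.02 and -0.54 on the 2 h arrays of *cdc14-3 snf1*, which overlap. The 5 genes *SSA1*, *SSA2*, *SSE1*, *HSC82* and *STI1* were above 0 on every *snf1* array and below 0 on every *cdc14-3 snf1* array (0.787% of all features). The 8 genes *HSP26*, *HSP42*, *HSP104*, *HSP78*, *SSA4*, *SSE2*, *APJ1* and *ECM10* were above 0 on every array (20.2% of all features), and *AHA1*, *SSC1* and *HSP60* below 0 on every array (24.5%).

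Time at 35 °C was examined within the strains that had a 90 min array. With 1 term for it beside the strain means, no member passed the threshold for 90 min minus 2 h (0% of all features), and 8 had an unadjusted p under 0.05, all higher at 90 min (9% of all features). These were *SSA3* (1.12, limma adjusted p = 0.073), *HSP42*, *HSP26*, *HSP104*, *HSP78*, *SSA4*, *BTN2* and *APJ1*, with differences between 0.90 and 1.49. The term averages unlike strains. In *cdc14-3 snf1* the 90 min array lay above both 2 h arrays in 28 of the 31 members (90.3%), against 38.7% of all features, while in *snf1* it lay above both in 9 members (29%, against 39.0% of all features) and below both in 9 (29%, against 43.9%).

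**Figure D3:**
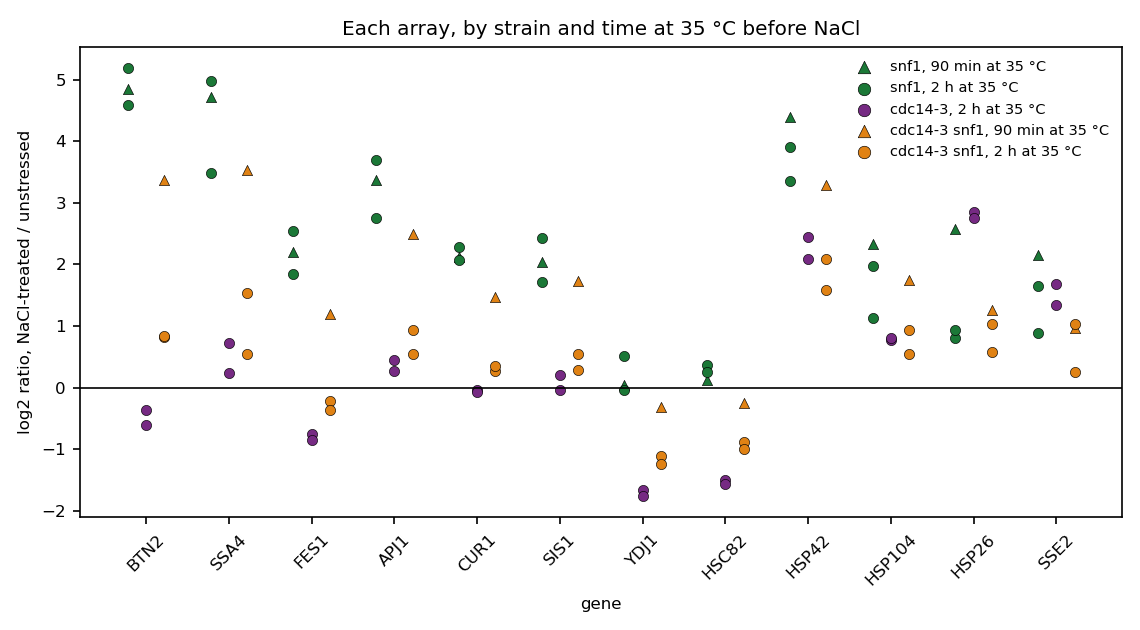
Log2 ratio (NaCl-treated over unstressed, vertical axis) of the 8 genes with the largest difference between *cdc14-3* and *snf1* and of *HSP42*, *HSP104*, *HSP26* and *SSE2*, with 1 point per array, colored by strain, triangles for 90 min and circles for 2 h at 35 °C before NaCl. For *BTN2* the *cdc14-3 snf1* triangle lies at 3.38 and the circles at 0.82 and 0.83, while the *snf1* triangle at 4.85 lies between the circles at 5.18 and 4.59.

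A fit with a separate term for each strain, chosen after the values were seen, set 1 array at 90 min against 2 at 2 h and assumed that the lone array varies like the others. *BTN2* was higher at 90 min by 2.55 in *cdc14-3 snf1* (95% interval 1.90 to 3.21, limma adjusted p = 0.089) and differed by -0.041 in *snf1*, and the difference between these, 2.59 (1.67 to 3.52), had an adjusted p of 0.11 in limma. Of the members, 13 had an unadjusted p under 0.05 for this difference, 12 of them larger in *cdc14-3 snf1* (10.7% of all features), but none passed after adjustment (0% of all features). *HSP26* was the one that went the other way (-1.25, limma adjusted p = 0.14): in *snf1* it was higher at 90 min by 1.71 (95% interval 1.14 to 2.28). *SSA3* was higher at 90 min by 1.13 in *snf1* (0.60 to 1.67) and by 1.10 in *cdc14-3 snf1* (0.57 to 1.64). In *snf1* these 2 members passed the adjusted threshold in limma, as did 2.15% of all features in that direction, on the strength of 1 array against 2. Whether heat time or another property of the replicate 1 arrays goes with these values was not tested.

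Related genes did not always respond alike, and 8 pairs were set side by side. How the probes of the tiled arrays were combined is not stated, and near-identical copies may share them. *SSA1* exceeded *SSA2* on 8 of 8 arrays, by 0.13 to 0.32, and *HSP82* exceeded *HSC82* on 8 of 8, by 0.46 to 1.07. *SSE1* lay below *SSE2* on all 8 arrays, by 0.67 to 2.64, and *SSC1* below *ECM10* on all 8, by 0.77 to 1.95. In each of these pairs the gene known for its higher basal expression, or the less inducible one, thus had the lower ratio, except in *SSA1* and *SSA2*, which are both made without stress. The gap between *SSE1* and *SSE2* was widest in *cdc14-3*, at -2.61 on average, against -1.28 in *snf1* and -1.30 in *cdc14-3 snf1*. *SSA3* lay above *SSA4* on 1 of the 8 arrays, *AHA1* above *HCH1* on 1, and *HSP104* above *HSP78* on 3.

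**Figure D4:**
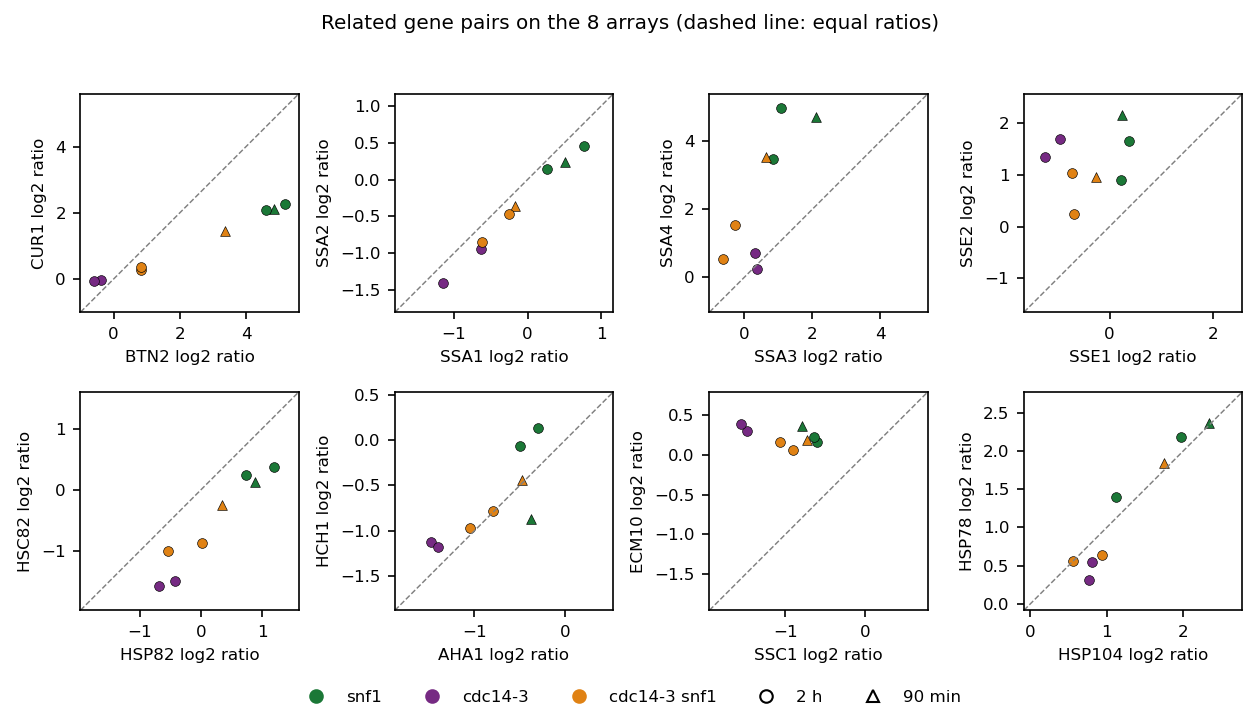
Log2 ratios (NaCl-treated over unstressed) of 8 pairs of related genes, the first gene on the horizontal and the second on the vertical axis, with 1 point per array, colored by strain, and a dashed line where the ratios are equal. *SSA1* and *SSA2* lie close to a straight line just below equality, while all 8 points of *SSE1* and *SSE2* lie above the dashed line.

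Across the 8 arrays, the features whose ratios ran most like those of *BTN2* among 6095 were *CUR1* (Pearson r = 0.997), *FES1* (0.995), *ZPR1* (YGR211W, 0.994), *DBP6* (YNR038W, 0.993) and *HSC82* (0.992). The arrays share strains, and 3 groups of arrays far apart give high correlations readily, so these are descriptions. Members least like *BTN2* were *HSF1* (-0.59), *HSP26* (-0.37), *ECM10* (-0.12), *CDC37* (-0.03), *SSE2* (0.27) and *SBA1* (0.43). *HSC82* had this likeness at a small scale: its means in *snf1*, *cdc14-3* and *cdc14-3 snf1* were 0.25, -1.54 and -0.71, where those of *BTN2* were 4.88, -0.49 and 1.68.

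Other chaperone genes were counted for context, from a list of 55 that holds no member. The list also holds 3 genes of ubiquitin and proteasome supply, *UBI4*, *RPN4* and *MBF1*. For *cdc14-3* minus *snf1*, 8 of the 55 were lower and 6 higher (median -0.15), where 22 of the 31 members were lower and none higher (median -1.38). Of all 6135 features, 625 were lower and 536 higher. Over the 2 h arrays 22 of the 55 were lower and 7 higher (median -0.24). There 24 members were lower and 1 higher (median -1.40), and 20% of all features (1218 of 6096) were lower and 1060 higher. The 4 genes of the Hsp31 family, related to the human protein DJ-1, went the other way from most members: *HSP31* (YDR533C), *HSP32* (YPL280W), *HSP33* (YOR391C) and *SNO4* (YMR322C) rose in every strain and were higher in *cdc14-3* than in *snf1*, by 0.90, 2.15, 1.76 and 1.90 (limma adjusted p between 0.0081 and 0.015). *HSP32*, *HSP33* and *SNO4* are nearly the same in sequence and could share probes. Of the 18 genes of ribosome-linked chaperones, the cytosolic chaperonin and prefoldin, 5 were lower in *cdc14-3* and none higher, and of 11 genes of the endoplasmic reticulum 1, *JEM1* (YJL073W, 1.45, limma adjusted p = 0.012), was higher. Over the 2 h arrays 12 of these 18 were lower and none higher, and of these 11, 2 were lower and 1 higher. *RPN4* (YDL020C), the transcription factor of the proteasome genes, had ratios of 2.54, 2.09 and 1.55 in *snf1*, 0.13 and 0.09 in *cdc14-3*, and 1.48, -0.03 and 0.32 in *cdc14-3 snf1*, and was lower in *cdc14-3* by 1.95 (limma adjusted p = 0.017). *UBI4* and *MBF1* were not past the threshold for this difference (limma adjusted p = 0.089 and 0.056). Over the 2 h arrays all 3 were lower in *cdc14-3*.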

How the data were processed

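RNA of NaCl-treated and unstressed cells, each with its own Oyster dye, was hybridized by the authors to 8 tiled whole-genome arrays. The authors deposited normalized values, 1 log2 ratio for a feature on an array. The normalization steps, the way probes were combined, software and genome build are not given in the sources used here. The log base and the direction of the ratio were taken from the study's methods. The methods name BY4741 for strains that the labels call W303. The number of arrays limits the precision.

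Values were used as deposited. With limma 3.58.1 under R 4.3.3, strain means were estimated jointly from the 8 arrays and moderated with eBayes, by code tested on simulated data. The 6135 features measured on 2 or more arrays in each strain were tested, with the Benjamini-Hochberg adjustment over all of them and a threshold of 0.05. Fits with heat time as a term, with the 2 h arrays alone and without single arrays were alternatives, with array weights, 1 common scale and others. Groups were taken from the labels. Symbols came from a RefSeq gene table (5984 features matched). Exact permutation tests used array values.

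Values were given on every array for *BTN2*, *CUR1*, *HSF1*, up to 8 members with the largest called difference between strains and the highest and lowest member of each role group. Some others were added after their values were seen. The members, lists and tests were chosen with earlier results of these data known. Planned comparisons of promoter motifs and protein sequences were not run, as no sequences were used here.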

Additional observations from a re-analysis of the deposited data

Results flagged for a closer look

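The response to NaCl differed between *cdc14-3* and *snf1* for 22 of the 31 genes, by a test of the difference itself (limma adjusted p under 0.05). Differences are *cdc14-3* minus *snf1* on the log2 scale, 2 arrays against 3. All 22 were lower in *cdc14-3*, as were 10.2% of all features. Among the sorting factors these were *BTN2* (-5.36) and *CUR1* (-2.21), and among the small heat shock and membrane proteins *HSP42* (-1.62) and *HSP30* (-1.07). The mitochondrial disaggregase *HSP78* (-1.55) and the Hsp70 genes *SSA1* (-1.40), *SSA2* (-1.45) and *SSA4* (-3.91) were lower, as were the exchange factors *SSE1* (-1.38) and *FES1* (-3.0) and the J proteins *SIS1* (-1.98), *YDJ1* (-1.88) and *APJ1* (-2.92). Of the Hsp90 system *HSP82* (-1.50), *HSC82* (-1.78), *STI1* (-1.59), *AHA1* (-1.05) and *CPR6* (-1.38) were lower, and of the mitochondrial chaperones *SSC1* (-0.84), *MDJ1* (-1.75), *HSP60* (-1.06) and *HSP10* (-1.24). In each of the 22 both *cdc14-3* arrays lay below all 3 *snf1* arrays, which held for 26.9% of all features. No strain had 4 arrays, so no array was tested as an outlier.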

How the results depend on the processing

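Counts of members called in limma are given with 1 array left out as a range: 16 to 20 for the *snf1* response, 10 to 19 for *cdc14-3*, 15 to 21 for *cdc14-3 snf1*, 0 to 23 for *cdc14-3* minus *snf1* (22 with all arrays), 0 to 17 for *cdc14-3 snf1* minus *snf1*, 0 to 1 for *cdc14-3 snf1* minus *cdc14-3* and 0 to 3 for 90 min minus 2 h. The *cdc14-3* response fell to 10 without its replicate 3, *cdc14-3* minus *snf1* to 0 and 7 without its replicates 2 and 3, *cdc14-3 snf1* minus *snf1* rose to 17 and 10 without the 90 min array of *cdc14-3 snf1* and of *snf1*, and the heat count to 3 without that of *cdc14-3 snf1*. With 0 called over all arrays, *cdc14-3 snf1* minus *snf1* gave 7 with a heat term, 22 over the 2 h arrays and 22 with array weights, all lower in *cdc14-3 snf1*. Of all features, 110 of 6135, 1382 of 6096 and 1093 of 6135 were then called, in either direction. Without the 90 min array of *cdc14-3 snf1* and of *snf1*, 257 of 6118 and 731 of 6103 features were called for this difference. *cdc14-3 snf1* minus *cdc14-3* gave 1 with a heat term, over the 2 h arrays, with array weights and in a fit of those strains alone. Features called there were 13 of 6135, 44 of 6096, 198 of 6135 and 25 of 6140. Whether the replicate numbers pair the arrays could not be decided. Deviations of same-numbered arrays correlated between -0.21 and 0.26, and those of arrays with different numbers between -0.26 and 0.21. With 2 or 3 arrays in a strain, its deviations are tied to each other. Not every array correlated best with its own number. With a replicate block the counts were 20, 19 and 22 for the 3 responses, 0 for *cdc14-3 snf1* minus *cdc14-3*, 1 for *cdc14-3 snf1* minus *snf1* and 21 for *cdc14-3* minus *snf1*. In the same order, 3253, 2592, 2928, 2, 10 and 890 of 6135 features were called. *BTN2* at 90 min minus 2 h ranged from -0.041 without the 90 min array of *cdc14-3 snf1* to 2.55 without that of *snf1* (1.26 with all). Over single genes and alternatives, 695 of 797 values kept direction and side of the threshold and 1 turned its direction. Where an arm was left with 1 array, it was assumed to vary like the other strains. Apart from the arrays left out, the cause was not tested. Signal over background was not used here, so dim genes could not be set apart.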
